A study of Rattus norvegicus with 6 samples.

Results

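miR-21-5p and miR-21-3p are the mature arms of a single rat hairpin, and their rows were taken by exact name from a table of exosomal miRNAs. They are 2 of 763 miRNAs listed, of which 250 had a read in any library. Exosomes are small vesicles that cells release. They were isolated with a reagent from the supernatant of rat mesenchymal stem cells (MSCs), labelled as the line RBMSC with the genotype WT. Small RNA was sequenced from 3 libraries of untreated cells and 3 libraries of cells pretreated with 200 µM nicorandil for 24 h. Nicorandil, a drug against angina, is a nitric oxide donor and an opener of ATP-sensitive potassium channels. Whether replicates were separate cultures is not in the labels, so p-values reflect only how far these samples spread, and that spread may be technical.

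miR-21 is among the most studied miRNAs of mammalian cells. Its primary transcript is cut by Drosha and Dicer to a short duplex, of which the 5p strand is usually kept by Argonaute as the guide and the 3p strand is usually degraded. The 5p strand represses mRNAs such as those of the tumour suppressor Pdcd4 and the signalling inhibitor Spry1. It is known for promoting cell survival and, in fibroblasts, fibrosis, and TGF-beta signalling raises its processing. miR-21-5p is also a frequently described cargo of MSC exosomes.

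The sequences show which molecules were counted, and each is given 5′ to 3′ from RefSeq (build GRCr8). The hairpin of 92 bases lies at chr10:71902600-71902691 on the minus strand. It overlaps no protein-coding gene in that annotation, and the nearest one is Vmp1. In the hairpin the capitals mark the mature arms, and in the arms they mark the seed, bases 2 to 8.
rno-mir-21: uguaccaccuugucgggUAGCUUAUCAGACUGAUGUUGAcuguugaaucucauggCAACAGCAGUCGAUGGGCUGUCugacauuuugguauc
miR-21-5p: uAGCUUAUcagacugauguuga
miR-21-3p: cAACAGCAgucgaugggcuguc
Both arms have 22 bases, with 16 bases of loop between them. The GC content is 36.4% in the 5p arm and 59.1% in the 3p arm. In the minimum free energy fold (-42.6 kcal/mol), 19 bases of the 5p arm pair with bases of the 3p arm. None of the other 692 mature rat sequences in the RefSeq table shares the seed of either arm. The nearest other mature sequence is 7 single-base edits away from miR-21-5p and 8 from miR-21-3p. Reads of the miR-21 arms are therefore far in sequence from those of any other mature miRNA in that table, which matched 686 of the 763 listed names.

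Depth was low and differed with the treatment. The untreated libraries held 2212 to 2338 miRNA reads and the nicorandil libraries 8426 to 16628, a difference of 6.11-fold over the groups. The mesenchymal marker miRNAs, led by miR-143-3p and including miR-21-5p, took 27.3% to 28.0% of reads in untreated and 26.2% to 31.3% in nicorandil libraries. Most of this was miR-143-3p alone, at a mean of 22.5% in untreated and 24.1% in nicorandil libraries. All 11 markers had a read, but miR-31a-5p had only 1, in a nicorandil library. miR-145-5p, which is encoded next to miR-143, also had none in untreated libraries, where the 3p arm of miR-145 had 6. Untreated replicates 1 and 2 did not differ beyond counting noise (chi-square p = 0.74 over 54 miRNAs with at least 10 reads), nor did 1 and 3 (p = 0.15), while 2 and 3 did (p = 0.015). The nicorandil libraries, which are deeper, all differed beyond counting noise (chi-square p = 3.3e-13, 2.3e-55 and 1.8e-57), with the larger differences between the third library and each of the others. The untreated libraries were kept as separate samples, and the value with replicates 1 and 2 averaged is given beside the test.

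miR-21-5p was one of the abundant miRNAs of both kinds of exosome. It had 52, 44 and 67 reads in the untreated libraries and 458, 419 and 229 reads in the nicorandil libraries. By reads it ranked 9th, 10th and 6th in the untreated libraries and 7th in each nicorandil library. Its position therefore varied more among the shallow libraries than among the deep ones.

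As a share of all miRNA reads, miR-21-5p took 2.34%, 1.99% and 2.87% of the untreated libraries. It took 2.75%, 2.57% and 2.72% of the nicorandil libraries. The highest share of all was that of untreated replicate 3, so the groups overlapped. Of the 121 tested miRNAs 11 (9.09%) had shares that were separated upward. The 95% Wilson interval of that library ran from 2.26% to 3.62%, and that of nicorandil replicate 1 from 2.52% to 3.01%. These intervals cover counting error only, since no molecular identifiers were recorded and PCR copies of a molecule count as several reads.

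The mean share was 2.40% ± 0.441 without and 2.68% ± 0.0995 with nicorandil (SD, n = 3 each). The difference of 0.282 percentage points was within the spread of the untreated libraries (two-sided exact permutation p = 0.4, where 0.1 is the smallest that 3 against 3 libraries allow). Counting alone would give an SD of 0.323 percentage points at the untreated depth and 0.142 at the nicorandil depth. Without untreated replicate 3 the difference was 0.516 percentage points, and without untreated replicate 2 it was 0.0777. Leaving miR-143-3p, the most abundant miRNA, out of the total gave shares of 3.09% ± 0.555 and 3.53% ± 0.15 (SD, n = 3 each, exact permutation p = 0.3).

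The miRNAs next to miR-21-5p in the order of mean share mostly overlapped it in their library shares. In untreated exosomes it stood 9th, below miR-423-3p at 2.49% ± 0.303 and miR-128-3p at 2.44% ± 0.511, and above miR-320-3p at 2.15% ± 0.0364 and let-7c-5p at 1.89% ± 0.225 (SD, n = 3). The library shares of all 4 overlapped those of miR-21-5p. Within each untreated library, however, let-7c-5p was below it, at 1.71%, 1.81% and 2.14% against 2.34%, 1.99% and 2.87%. In nicorandil exosomes it stood 7th, between miR-328a-3p at 2.83% ± 0.296 and miR-191a-5p at 2.51% ± 0.488, both overlapping it. The next neighbours there, miR-320-3p above and miR-99a-5p below, did not overlap it, at 4.16% ± 1.93 and 2.50% ± 0.0296. Over these 8 comparisons no adjusted exact permutation p was under 0.4. That test ignored that both miRNAs were read in the same libraries, so it does not measure separation within a library.

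On the authors' normalized scale the same reads gave separated groups. The deposited values of miR-21-5p were 101, 97.3 and 137 normalized reads in the untreated libraries. They were 172, 166 and 177 in the nicorandil libraries, so every nicorandil value lay above every untreated one. Of the 121 tested miRNAs 21 (17.4%) were separated upward in this way.

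**Figure D1:**
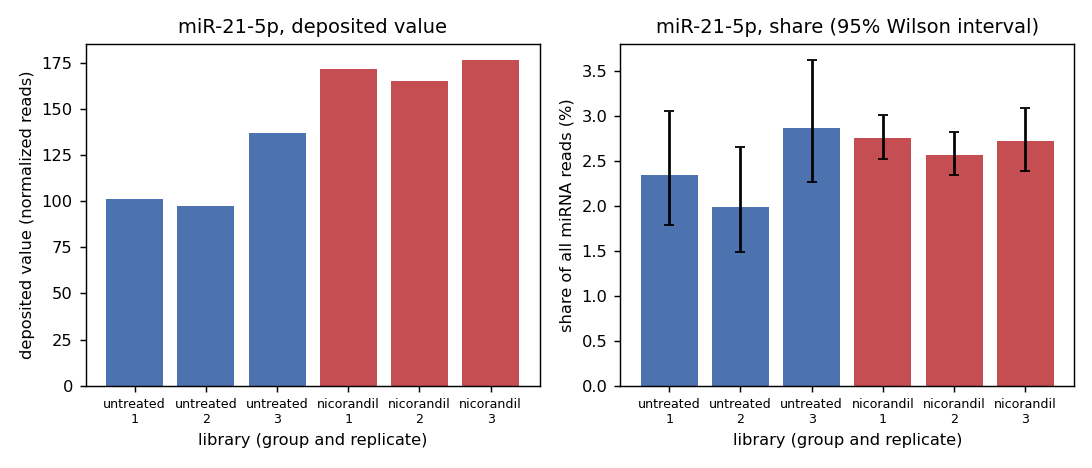
miR-21-5p in each library: the left panel shows the deposited value in normalized reads, the right panel the share of all miRNA reads in percent with its 95% Wilson interval. Blue bars are untreated and red bars nicorandil libraries; the groups are separate on the left, at 97.3 to 137 against 166 to 177, and overlap on the right, where untreated replicate 3 is highest at 2.87%.

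miR-21-5p was higher after nicorandil on this scale, at 112 ± 21.8 against 171 ± 5.52 normalized reads (SD, n = 3 each), a 1.53-fold ratio of means. The log2 fold change on the log2(value + 1) scale was 0.63 (SE 0.16, 95% interval 0.29 to 0.96, limma adjusted p = 0.00937). On the same scale 17 of the 121 tested miRNAs were called higher (14.0%), or 6 without nicorandil replicate 2, and the median over all of them was 0.23 on the log2 scale. Of the tested miRNAs 35 (28.9%) had a larger fold change than miR-21-5p. The authors' deposited table gives it a log2 fold change of 0.61 with an unadjusted p of 0.000871.

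Leaving out 1 library ended this call in 3 of 6 cases. It was lost without untreated replicate 2 (log2 fold change 0.54, limma adjusted p = 0.0593), without nicorandil replicate 1 (0.62, adjusted p = 0.068) and without nicorandil replicate 2 (0.65, adjusted p = 0.0738). With untreated replicates 1 and 2 averaged to a single sample the value was 0.55 (limma adjusted p = 0.0481).

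The size of the change depended on how libraries were put on a common scale. The authors' scale is TMM, edgeR's trimmed mean of M-values, which sets library sizes from the miRNAs with unexceptional ratios. Its factors were 1.27, 1.14 and 1.12 for the untreated and 0.875, 0.843 and 0.840 for the nicorandil libraries. Relative to library totals, these factors raised nicorandil values against untreated by 0.46 on the log2 scale, or 1.38-fold, as a mean over libraries. The fitted changes of single miRNAs did not all shift by this amount, and that of miR-199a-5p was 0.46 on both scales.

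With library totals as the scale, miR-21-5p stood at 128, 108 and 156 scaled reads in untreated and 150, 140 and 148 in nicorandil libraries. The groups overlapped. The log2 fold change was 0.17 (95% interval -0.16 to 0.51, limma adjusted p = 0.528), and the median of the 121 tested miRNAs was -0.12. On that scale 4 of the 121 were called higher (3.31%), and miR-21-5p was not among them.

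Other scalings fell between these ends. Median-of-ratios scaling gave 112, 102 and 149 scaled reads in untreated and 151, 156 and 168 in nicorandil libraries. These groups just failed to overlap, and the log2 fold change was 0.40 (95% interval 0.04 to 0.76, limma adjusted p = 0.156). Upper-quartile scaling gave 91.1, 103 and 156 against 176, 163 and 160, again with a narrow gap, and a log2 fold change of 0.55 (95% interval 0.07 to 1.03, adjusted p = 0.131). Each of these scales called 6 of 121 miRNAs higher (4.96%).

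The choice of miRNAs that entered TMM mattered as well. With edgeR's quasi-likelihood test on the 55 miRNAs that its filter kept, miR-21-5p was at 0.61 (adjusted p = 0.0157) with TMM factors from all miRNAs. With factors from the 55 kept ones alone it was at 0.37 (quasi-likelihood adjusted p = 0.114). The position of miR-21-5p relative to the median tested miRNA moved less. It was 0.39 above the median on the deposited scale, 0.29 with library totals, 0.29 with median of ratios and 0.37 with the upper quartile.

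**Figure D2:**
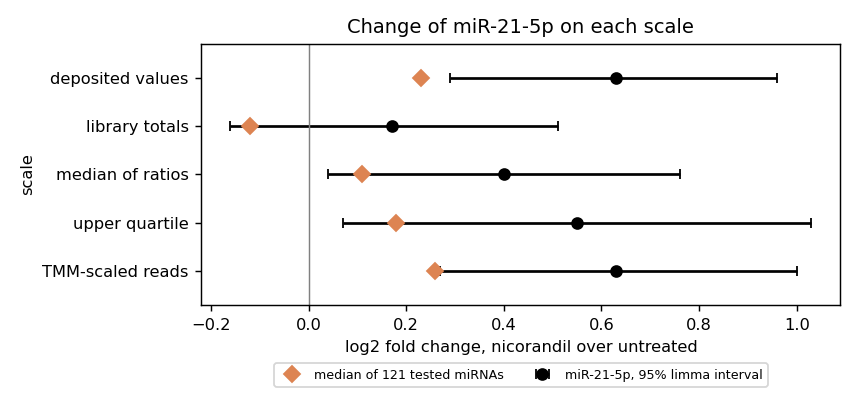
Log2 fold change of miR-21-5p, nicorandil over untreated, on the x axis for each scale on the y axis. Black points with bars are miR-21-5p with its 95% limma interval, and orange diamonds are the median of the 121 tested miRNAs; miR-21-5p runs from 0.17 with library totals, where the interval includes 0, to 0.63 on the deposited scale, and the medians shift the same way.

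Ratios within a library need no scale, and they showed that the direction depended on the partner. Reads of miR-21-5p were divided by those of each of the other 9 miRNAs among the 10 most abundant. The mean ratio was higher after nicorandil for 6 partners and lower for 3.

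Against miR-143-3p, the abundant smooth muscle and mesenchymal miRNA, the ratio was 0.105, 0.0859 and 0.129 in untreated and 0.107, 0.0999 and 0.13 in nicorandil libraries. These values overlapped almost fully. Against miR-24-3p, made from the miR-23/24/27 clusters, it was 0.338, 0.324 and 0.399 in untreated and 0.548, 0.485 and 0.578 in nicorandil libraries. These did not overlap, and the mean ratio was 1.52-fold higher. miR-21-5p per read of miR-328a-3p went from 0.571 ± 0.211 to 0.953 ± 0.11 (SD, n = 3), also without overlap.

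The ratio to miR-148a-3p ran the other way, at 0.236, 0.213 and 0.272 in untreated and 0.182, 0.161 and 0.174 in nicorandil libraries. The ratio to miR-320-3p, which matures without Drosha, was likewise lower, at 1.11 ± 0.199 and 0.723 ± 0.259 (SD, n = 3), and the groups did not overlap. Nicorandil replicate 3, where miR-320-3p took 6.38% of reads, had the lowest ratio at 0.426. The ratios to miR-423-5p, miR-191a-5p, miR-128-3p and miR-99a-5p overlapped, with changes of 0.30, 0.38, 0.29 and -0.25 on the log2 scale. Each of the 4 ratios without overlap had an exact permutation p of 0.1, the smallest possible, and 0.225 after adjustment over the 9 ratios. How often such ratios separate for other miRNAs was not counted. With library totals these 4 partners were themselves called: miR-148a-3p (0.65) and miR-320-3p (0.85) higher, miR-24-3p (-0.43) and miR-328a-3p (-0.62) lower. Over all tested miRNAs 3.31% were called higher there and 9.09% lower. The ratios therefore also carry the changes of the partners.

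**Figure D3:**
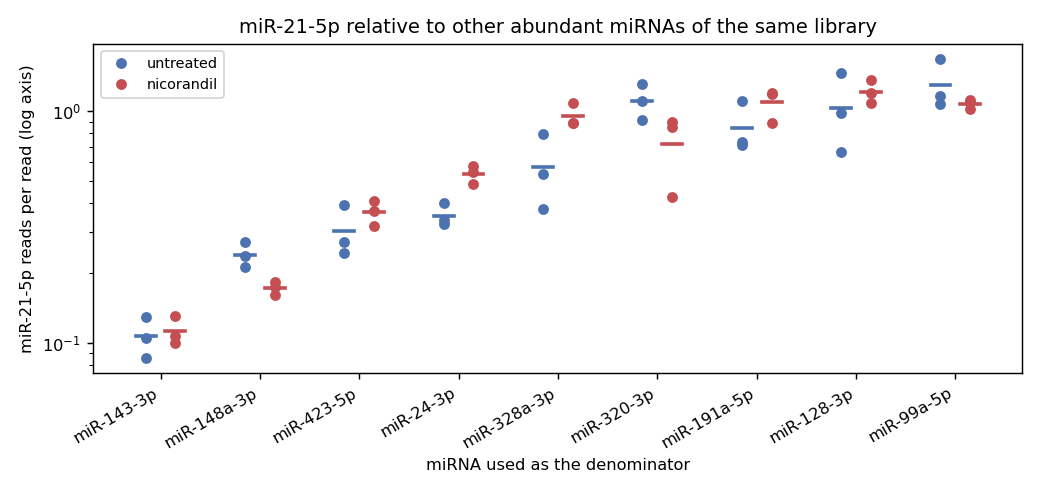
Reads of miR-21-5p per read of each of the 9 other most abundant miRNAs (x axis) on a log y axis. Points are libraries, blue untreated and red nicorandil, and short lines are group means; the nicorandil points lie above the untreated ones for miR-24-3p and miR-328a-3p, below them for miR-148a-3p and miR-320-3p, and among them for the other 5.

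miR-21-3p, the passenger strand, was nearly absent. It had 0 reads in all 3 untreated libraries, and 1, 0 and 0 reads in the nicorandil libraries. A count of 0 allows up to 3 reads, or a share of up to 0.128% to 0.136% of an untreated library and 0.0184% and 0.0356% of nicorandil replicates 2 and 3. The single read gave a deposited value of 0.436 normalized reads in nicorandil replicate 1. The authors' deposited table lists a log2 fold change of 1.37 for it with a p of 1, and that fold rests on this read. With a mean value under 1 it did not enter the test of the 121 miRNAs. When all 250 miRNAs with a read were tested, its limma adjusted p was 0.671. Both groups lay at or under the limit of 3 reads, so no fold is given.

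The arm ratio was therefore far to the 5p side. Over the 6 libraries 1269 reads came from the 5p arm and 1 from the 3p arm, so the 3p arm took 0.0787% (95% Wilson interval 0.0139% to 0.445%). In nicorandil libraries it took 1 of 1107 reads, or 0.0903% (interval 0.0159% to 0.51%). The 163 untreated reads held none, which allows up to 1.84%. At the nicorandil share 0.147 reads of the 3p arm would be expected among the untreated reads, so a change of the arm ratio was not detectable at this depth (exact permutation p = 1).

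Such an imbalance was common among the hairpins of these libraries. Of the 36 hairpins with at least 100 reads and both arms listed, 17 had a lower counted minor-arm share than miR-21. Of these, 16 had no minor-arm read, and a count of 0 allows up to 3 reads here too. At depths such as the 125 reads of miR-149 or the 1689 of miR-320, that limit exceeds the share of miR-21. A lower share is therefore not shown for such hairpins. The median minor-arm share of the 36, miR-21 included, was 0.188%. It is the midpoint between the 0.0787% of miR-21 itself and the 0.298% of miR-10b. The 3 hairpins with reads from both arms and totals closest to that of miR-21 were miR-191a, miR-10b and miR-125a. miR-191a had 1188 reads from the 5p and 4 from the 3p arm, and miR-10b had 670 and 2. miR-125a, at 545 and 33 reads, kept 5.71% on its minor arm.

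**Figure D4:**
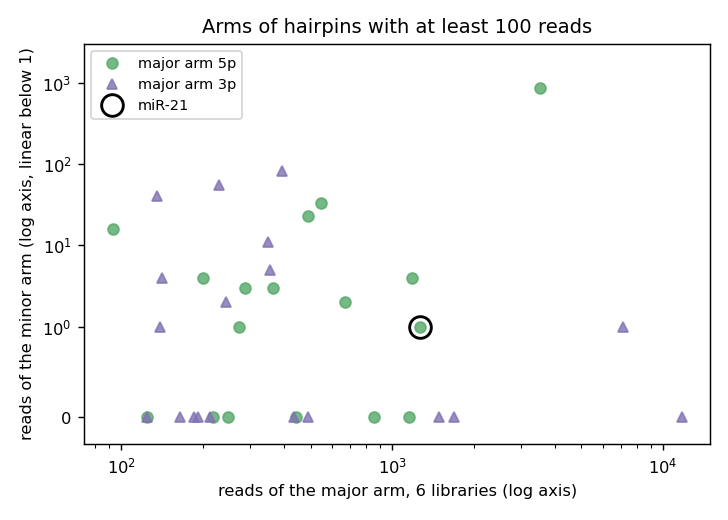
Reads of the minor arm (y axis, logarithmic and linear below 1) against reads of the major arm (x axis, logarithmic) over the 6 libraries, for the 36 hairpins with at least 100 reads. Green circles have 5p and purple triangles 3p as the major arm, and the ring marks miR-21 at 1269 and 1 reads; 16 hairpins lie at 0 minor-arm reads.

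The miRNAs most like miR-21-5p over the 6 libraries were found by the root mean square difference of log2(value + 1), each miRNA centred on its mean. miR-30d-5p was closest (0.16), followed by miR-143-3p (0.19) and miR-674-3p (0.21), against a median of 0.61 over the other 120 tested miRNAs. miR-30d-5p had 54.2, 67.5 and 85.0 normalized reads in untreated and 104, 126 and 125 in nicorandil libraries. Like miR-21-5p it was highest among untreated libraries in replicate 3. All 3 were called higher on the deposited scale, beside 14.0% of all tested miRNAs. Since they were picked for deposited values that move like those of miR-21-5p, these calls add no separate result. None of the 3 was called higher with library totals, beside 3.31% of all tested miRNAs. There their log2 fold changes were 0.34, 0.09 and 0.23 (limma adjusted p = 0.304, 0.615 and 0.489). The 6 libraries share the depth difference and the scale, so this likeness is a description of the deposited values.

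Among 11 miRNAs known to promote fibrosis, miR-21-5p carried most of the reads. Of the 5 that were tested, 2 were called higher (miR-21-5p and miR-145-5p), 1 lower (miR-192-5p) and 2 did not pass. Over all tested miRNAs 14.0% were called higher and 7.44% lower. The list's median was 0.46 on the log2 scale, against 0.23 over all tested miRNAs. miR-145-5p had no read in untreated libraries, which allows up to 3, and 46 reads in the 6.11-fold deeper nicorandil libraries. It reached the minimum mean for testing only through the nicorandil libraries, so its call is no separate support. miR-192-5p, which is also enriched in liver and gut, went from 21.4 ± 5.65 to 9.29 ± 2.21 normalized reads (SD, n = 3). miR-214-3p and miR-199a-5p, made from 1 mesenchymal cluster, were at log2 fold changes of 0.07 and 0.46. With library totals the list's median was 0.17, which is the value of miR-21-5p itself, against -0.12 over all tested miRNAs. There miR-145-5p was called higher and miR-192-5p lower, where 3.31% of all tested miRNAs were called higher and 9.09% lower.

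Of 14 miRNAs known to restrain fibrosis, 8 were tested, 2 were called lower, none higher and 6 did not pass. The lower ones were miR-30c-5p, which targets the matrix-inducing factor CTGF, at 15.2 ± 4.16 and 4.65 ± 2.45 normalized reads (SD, n = 3), and miR-200b-3p, an epithelial miRNA with 11 untreated and 4 nicorandil reads. miR-200b-3p reached the minimum mean for testing only through the untreated libraries, so its call is no separate support. Across all tested miRNAs 9 (7.44%) were called lower. miR-29a-3p, a repressor of collagen mRNAs, had a log2 fold change of 0.35 and miR-26a-5p of 0.09, and neither passed. The median of the list was -0.34, and -0.58 with library totals. There 3 members were called lower, against 9.09% of all tested miRNAs, with miR-24-3p the additional one at -0.43.

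Among 18 miRNAs known to promote cell survival, 14 were tested, of which miR-21-5p and miR-93-5p were called higher, miR-126a-3p and miR-486 lower, and 10 did not pass. Each count is 2 of 14, beside 14.0% higher and 7.44% lower over all tested miRNAs. The median log2 fold change was 0.12 on the deposited scale and -0.28 with library totals, where none was called higher and 3 lower (9.09% of all tested miRNAs were called lower there). miR-93-5p had 0 untreated and 24 nicorandil reads. The nicorandil libraries were 6.11-fold deeper and a count of 0 allows up to 3 reads, so this is not an absence from untreated exosomes. With library totals its limma adjusted p was 0.0565. miR-93-5p too reached the minimum mean for testing only through the nicorandil libraries, so its call is no separate support. miR-126a-3p is an endothelial miRNA and miR-486 one of red blood cells. miR-24-3p, the most abundant member, was at 314 ± 30.4 and 320 ± 19.9 normalized reads (SD, n = 3). miR-125b-5p was at 38.3 ± 9.39 and 69.3 ± 34.2 and did not pass. Of the 10 miRNAs known to promote apoptosis, 5 had a read and only miR-320-3p could be tested, with a log2 fold change of 1.30 (limma adjusted p = 0.000718). The p53-induced miR-34a-5p did not reach the minimum for testing.

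The summed shares of markers of other cell types were lower in all 3 nicorandil libraries than in any untreated one. How many of all tested miRNAs had shares separated downward was not counted. The separation therefore cannot be called particular to these markers. Calls are another measure. With library totals 9.09% of all tested miRNAs were called lower, and their median log2 fold change was -0.12. All 3 liver and gut markers were called lower, and the list took 1.44% to 2.61% of reads in untreated and 0.463% to 0.617% in nicorandil libraries. Among them miR-194-5p reached the minimum mean for testing only through the untreated libraries. Endothelial markers took 0.181% to 0.36% and 0.0301% to 0.0356%, with miR-126a-5p at 0 reads in every library. Epithelial markers took 0.181% to 0.385% and 0.0237% to 0.0301%, and blood cell markers 0.678% to 0.854% and 0.263% to 0.415%. Of these, 1 of 1 tested endothelial, 1 of 2 epithelial and 1 of 3 blood cell markers were called lower, where 7.44% of all tested miRNAs were. The tested epithelial markers, miR-200a-3p and miR-200b-3p, likewise entered the test only through the untreated libraries. The blood cell markers miR-451-5p and miR-142-5p did not pass, at log2 fold changes of -0.27 and 0.36, nor did the epithelial miR-200a-3p at -1.49. With all these markers left out of the total, the share of miR-21-5p was 2.48% ± 0.47 without and 2.70% ± 0.102 with nicorandil (SD, n = 3, exact permutation p = 0.6). The labels name only the MSC line, and whether vesicles of these other cell types were present was not tested. If they were, fewer vesicles of a cell type and less miRNA per vesicle cannot be told apart in these libraries.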

How the data were processed

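The deposited table gives 1 value per miRNA and library. The submitters' processing notes name FastQC, Bowtie and edgeR. Their versions, the build and the annotation are not given in the labels. The deposited values are a normalized read signal in the form of edgeR pseudo-counts, which was established from the values: inverting the formula (dispersion 0.0272) gave whole reads for 100% of the 763 miRNAs within a relative tolerance of 1e-05, each with 1 solution, whole numbers up to 12 being tried behind values of 0. Pseudo-counts recomputed from these reads matched the deposited values within 4.8e-07. In a deposited value 1 read was worth 1.93 to 2.17 units in untreated and 0.375 to 0.771 in nicorandil libraries. The deposited table also holds the authors' log2 fold changes and unadjusted p-values, per the file headers.

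limma 3.58.1 (R 4.3.3) with an intensity trend was fitted to log2(value + 1) of the 121 miRNAs whose mean reached 1, in all 6 libraries without covariates, with Benjamini-Hochberg adjustment over all of them and a threshold of 0.05. Count tests on the recovered reads used edgeR 4.0.16 and DESeq2 1.42.0, and were alternatives. The scripts were tested on simulated data. Named miRNAs were the miR-21 arms, the 2 nearest in abundance on each side, the 3 most alike, the 3 hairpins nearest in reads, the 10 most abundant, and the called or most abundant members of each list. Members and lists were chosen with earlier results of these data known. Same-numbered replicates did not deviate together (correlations of 0.01, 0.04 and -0.03).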

Additional observations from a re-analysis of the deposited data

How the results depend on the processing

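The log2 fold change of miR-21-5p stayed above 0 under all 29 alternatives and stayed past the threshold under 14 of them. Against 0.63 it lost its call with library totals (0.17), median of ratios (0.40), upper quartile (0.55), DESeq2 (0.38, adjusted p = 0.229), library totals without miR-143-3p (0.20) and TMM of the 55 miRNAs kept by edgeR's filter (0.37). With 1 library left out it lay between 0.54 and 0.78, and with library totals as well it was 0.16, 0.05 and 0.31 without untreated replicates 1, 2 and 3 and 0.15, 0.20 and 0.16 without nicorandil replicates 1, 2 and 3. Library totals without miR-143-3p or without a library, and TMM of the kept miRNAs, were chosen after seeing the data. The tested miRNAs past the threshold numbered 26, against 15 with library totals, 15 with median of ratios, 13 with upper quartile, 14 with DESeq2 (21 adjusted p-values not given), 13 with TMM of the kept miRNAs, and 11 to 21 with 1 library left out, the lowest without nicorandil replicate 2. TMM from all miRNAs and from the kept ones differ in the miRNAs used; for the other losses the cause was not tested.

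The replicate number shared between groups pairs nothing in the labels: with it as a block the log2 fold change was 0.63 (limma adjusted p = 0.00752), and 26 miRNAs passed, as without it. The share of miR-21-5p differed by 0.0777 to 0.516 percentage points with 1 library left out. The 3p share of both arms rests on 1 read, and its difference is 0 without nicorandil replicate 1. The fold change of miR-21-3p has no main value to set alternatives against, since it missed the filter; without the filter its limma adjusted p was 0.671. Depth limits it, as it limits the untreated shares of miR-21-5p, which rest on 44 to 67 reads.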

Other observations

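Within the fibrosis-promoting list the share taken by miR-21-5p did not overlap between the groups, at 69.3%, 61.1% and 71.3% of the list's reads in untreated and 77.5%, 75.8% and 76.3% in nicorandil libraries. miR-192-5p, a member of that list, was lower in the same libraries. Within the survival-promoting list miR-21-5p took 17.3%, 16.7% and 20.9% of reads in untreated and 24.9%, 22.2% and 27.0% in nicorandil libraries, also without overlap. That list took 11.9% to 13.7% of all reads in untreated and 10.1% to 11.5% in nicorandil libraries. Its member miR-24-3p alone took means of 6.75% and 5.01%, so this partly repeats the ratio to miR-24-3p. How often other miRNAs separate within a list was not counted. Both lists had p = 0.1 in a two-sided exact permutation test, which cannot go lower with 3 against 3 libraries, and 0.15 adjusted over 3 lists. Within the mesenchymal list the share of miR-21-5p overlapped, at 8.71% ± 1.71 and 9.15% ± 1.09 (SD, n = 3, exact permutation p = 0.8).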
